A study of Mus musculus with 24 samples.

Results

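The genes of the mitochondrial respiratory chain and the ATP synthase were described in the mouse retina after hypoxic preconditioning. Members were chosen by name alone, as the probe sets whose only gene symbol in the array annotation starts with Nduf, Uqcr or Atp5, starts with Cox followed by 4 to 8, or is Sdha, Sdhb, Sdhc or Sdhd. They were 179 of 45037 probe sets and stood for 90 of 18193 genes. RNA was measured on 24 Affymetrix mouse arrays, each with 1 pool of 3 retinas from 3 different mice. Hypoxic BALB/c mice breathed 6% oxygen for 6 h and were sampled after 0, 2, 4 and 16 h of reoxygenation in room air, and normoxic BALB/c mice were kept in parallel and sampled at the same times, with 3 pools in each of the 8 groups. Both alleles of Rpe65 in this strain carry the leucine variant that makes the retina sensitive to light, and the study describes the retinas as adult, with no exact age given in the sources used here. Pools are biological replicates of whole retina, in which fewer cells of a type and less RNA per cell cannot be told apart.

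The respiratory chain passes electrons to oxygen along complexes that sit in the inner mitochondrial membrane. Complex I takes them from NADH and complex II from succinate, complex III passes them on to cytochrome c, and complex IV reduces oxygen to water. The proton gradient built on the way drives the ATP synthase. Photoreceptor inner segments are packed with mitochondria, and the retina is known for its high use of oxygen. In hypoxia the transcription factor HIF-1 is known to change this machinery in other cells, among other ways through the isoforms Cox4i2 and Ndufa4l2.

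Values are log2 signals after RMA, so a difference of 1 is a doubling of signal. The pools of a time point were compared with limma, and a probe set was called when its p-value, adjusted over all probe sets tested at that time point, was under 0.05. A probe set was tested only where the mean of either treatment reached 6.69, the lowest point between the peaks of all values. Of the members, 146 probe sets of 84 genes were tested at 0 h. Of the others, 31 were tested at no time point, and Cox4i2, Cox7a1, Cox7b2, Cox8b and Ndufb4 had no tested probe set at any time.

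Array medians lay between 5.79 and 5.84, and the highest correlation of any array pair was 0.997. The arrays most unlike the others on average were the hypoxic pools of 0 h, then normoxic pool 3 of 16 h and normoxic pool 2 of 0 h. Markers of the retinal pigment epithelium (RPE), a cell layer outside the retina, moved with hypoxia at 0 h, with 5 of 5 tested markers higher. Their mean signal over 7 markers was 8.98 to 9.03 in hypoxic pools and 6.14 to 6.61 in normoxic pools. The mean of 7 lens markers ranged from 10.6 to 13.0 in hypoxic pools and from 8.23 to 11.7 in normoxic pools, with 0 of 7 called. Markers of rods, the most abundant retinal cells, were at 13.7 in hypoxic pools and 13.7 to 13.8 in normoxic pools, with 0 of 6 called. The part of the RPE and lens signal in the results on the respiratory chain was not tested.

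Directly after hypoxia, the respiratory chain was lower across most of its parts. At 0 h, 52 of 146 member probe sets fell (35.6%), where 17.2% of all 18815 probe sets tested were called lower. A single member rose, Ndufa4l2, where 15.1% of all probe sets were called higher. It was tested only because its hypoxic mean passed the signal threshold. The falls were small, with a median log2 change of -0.15 over all tested members (a ratio of 0.898), against -0.01 over all probe sets. Of the members, 126 of 146 had a negative change (86.3%), against 51.1% of all probe sets. In 78 members every hypoxic pool lay below every normoxic pool, which held for 23.9% of all probe sets, and in 6 members every hypoxic pool lay above, which held for 21.5%. Since members have a high signal, they were also set beside the probe sets with a mean signal of at least 10, a background chosen after the values were seen. There, 45 of 118 members (38.1%) and 15.7% of all probe sets were lower, and 0 members and 10.4% of all were higher. With each gene taken by its probe set of highest mean signal, 29 of 84 genes fell and 1 rose. Of all 10178 genes tested in this way, 1902 were lower (18.7%) and 1545 higher.

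**Figure D1:**
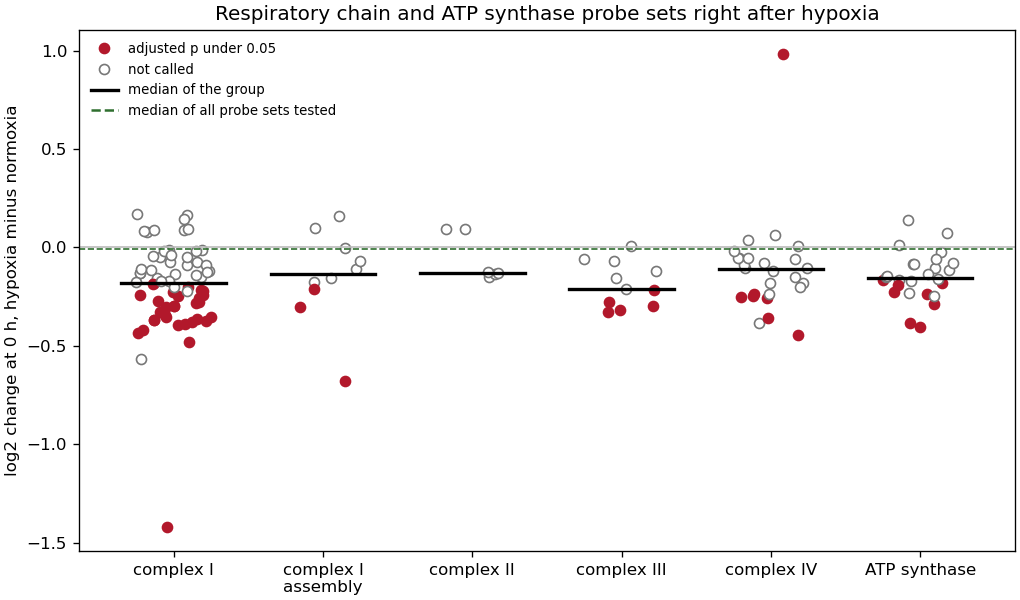
Log2 change at 0 h (hypoxia minus normoxia, vertical axis) of the 146 tested member probe sets, by complex, with filled points for adjusted p under 0.05, a black bar for the median of each group and a dashed line for the median of all probe sets tested (-0.01). Nearly all filled points lie below 0, and Ndufa4l2, counted with complex IV, stands alone at 0.98.

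Calls were made in every complex except complex II, of which only 6 probe sets were tested, too few to set it apart. Of all probe sets tested at 0 h, 17.2% were called lower. In complex I, 30 of 67 probe sets fell, with a median of -0.18. In complex III, 5 of 11 fell, with a median of -0.21. In the ATP synthase 8 of 26 fell (median -0.16), and in complex IV 6 of 26 fell and 1 rose (median -0.11). Among the Ndufaf genes, which encode assembly factors of complex I, 3 of 10 probe sets fell (median -0.13). None of the 6 tested probe sets of complex II was called, at a median of -0.13, and 1 of them had an unadjusted p under 0.05. Differences between complexes were not tested.

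The promoters of 5 genes that these results turn on are shown, 4 with large falls and Ndufa4, the partner of the only gene that rose. The windows are RefSeq sequence of GRCm38.p6, 250 bases before to 50 after the start, printed 5′ to 3′ on the gene's strand. Capitals mark matches on either strand to motifs of regulators of mitochondrial genes (NRF1, the letters GCGCA and GCGC with any base between them, GABPA, CCGGAAG, and YY1, AAGATGGCG), to the HIF core motifs ACGTG and GCGTG, and to the CCAAT box.
Ndufa12, chr10:94198785-94199084, plus strand: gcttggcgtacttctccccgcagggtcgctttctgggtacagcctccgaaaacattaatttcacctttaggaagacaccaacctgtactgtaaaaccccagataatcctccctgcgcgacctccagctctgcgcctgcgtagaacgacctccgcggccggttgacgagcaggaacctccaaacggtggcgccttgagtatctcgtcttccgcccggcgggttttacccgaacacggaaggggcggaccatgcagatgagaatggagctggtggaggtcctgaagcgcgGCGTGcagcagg
Ndufaf2, chr13:108158576-108158875, minus strand: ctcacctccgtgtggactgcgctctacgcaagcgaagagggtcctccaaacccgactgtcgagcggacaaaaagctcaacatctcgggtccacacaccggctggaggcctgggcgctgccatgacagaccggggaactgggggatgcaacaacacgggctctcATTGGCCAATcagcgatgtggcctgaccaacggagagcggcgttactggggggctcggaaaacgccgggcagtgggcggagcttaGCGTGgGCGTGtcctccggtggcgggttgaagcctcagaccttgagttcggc
Ndufb2, chr6:39592315-39592614, plus strand: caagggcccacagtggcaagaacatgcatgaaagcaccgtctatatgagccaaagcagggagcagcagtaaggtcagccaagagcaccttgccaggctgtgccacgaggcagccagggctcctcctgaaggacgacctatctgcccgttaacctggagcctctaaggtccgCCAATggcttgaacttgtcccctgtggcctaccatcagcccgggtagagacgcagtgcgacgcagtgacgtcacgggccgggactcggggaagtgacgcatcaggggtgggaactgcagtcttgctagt
Atp5l, chr9:44920693-44920992, minus strand: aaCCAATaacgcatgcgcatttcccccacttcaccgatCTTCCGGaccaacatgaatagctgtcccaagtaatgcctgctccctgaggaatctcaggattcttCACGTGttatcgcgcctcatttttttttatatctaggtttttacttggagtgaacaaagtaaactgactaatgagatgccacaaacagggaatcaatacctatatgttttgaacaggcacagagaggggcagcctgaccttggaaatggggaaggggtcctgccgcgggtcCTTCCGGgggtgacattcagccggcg
Ndufa4, chr6:11907401-11907700, minus strand: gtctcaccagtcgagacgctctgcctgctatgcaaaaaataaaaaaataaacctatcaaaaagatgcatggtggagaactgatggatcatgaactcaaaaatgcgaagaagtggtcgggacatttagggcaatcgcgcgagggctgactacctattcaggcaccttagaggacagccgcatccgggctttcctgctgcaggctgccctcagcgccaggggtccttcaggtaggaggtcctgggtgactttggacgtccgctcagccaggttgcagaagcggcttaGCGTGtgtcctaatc

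Windows were found for 74 of the 90 genes, 79 in all, and none for Cox4i2, Cox4i1 and Ndufa4l2 among others. The NRF1 motif was in 22.8% of the member windows and 4.6% of all 32851 windows, CCGGAAG in 24.1% and 8.86%, and AAGATGGCG in 8.86% and 1.4%. ACGTG was in 25.3% of member windows and 19.6% of all windows, GCGTG in 55.7% and 32.4%, and CCAAT in 41.8% and 37.4%. Among the 29 windows of genes lower at 0 h, 3 held the NRF1 motif, 6 held CCGGAAG, 3 held AAGATGGCG, 10 held ACGTG, 17 held GCGTG and 14 held CCAAT. Among the 46 windows of other tested members, 14 held the NRF1 motif, 13 held CCGGAAG, 4 held AAGATGGCG, 8 held ACGTG, 24 held GCGTG and 16 held CCAAT. These counts are a description without a test, and a match is not a binding site. Of the windows printed, Atp5l alone holds the letters CACGTG, in which ACGTG reads on both strands, and Ndufa12 and Ndufa4 each hold a single match, GCGTG.

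The largest fall of all members was at a probe set of Ndufa12, an accessory subunit of complex I. This was the dimmest of its 4 tested probe sets. Its log2 signal was 7.81, 8.25 and 7.87 in hypoxic pools and 8.94, 9.68 and 9.58 in normoxic pools at 0 h. All hypoxic pools lay clearly below all normoxic pools, at 0.373 times their level (log2 change -1.42, SE 0.17, adjusted p = 1.37e-06, limma). The other 3 tested probe sets of Ndufa12 also fell, but only by 0.24 to 0.34 on the log2 scale, so the size of the fall of this gene depended on the probe set.

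Ndufaf2, an assembly factor of complex I and a paralog of Ndufa12, had the next largest fall. Its signal was 7.41, 7.35 and 7.07 in hypoxic pools, against 7.98, 7.90 and 7.98 in normoxic pools. The groups were well apart, with a log2 change of -0.68 (SE 0.11, adjusted p = 7.38e-05). Ndufb2, an accessory subunit in the membrane arm of complex I, had 10.45, 10.45 and 10.52 in hypoxic pools and 10.96, 10.88 and 10.89 in normoxic pools at its brightest probe set. The pools of each group were tight and the groups did not overlap (log2 change -0.44, SE 0.07, adjusted p = 9.06e-05). A second Ndufb2 probe set fell by 0.48, and the third, of low signal, was at -0.17 and was not called.

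**Figure D2:**
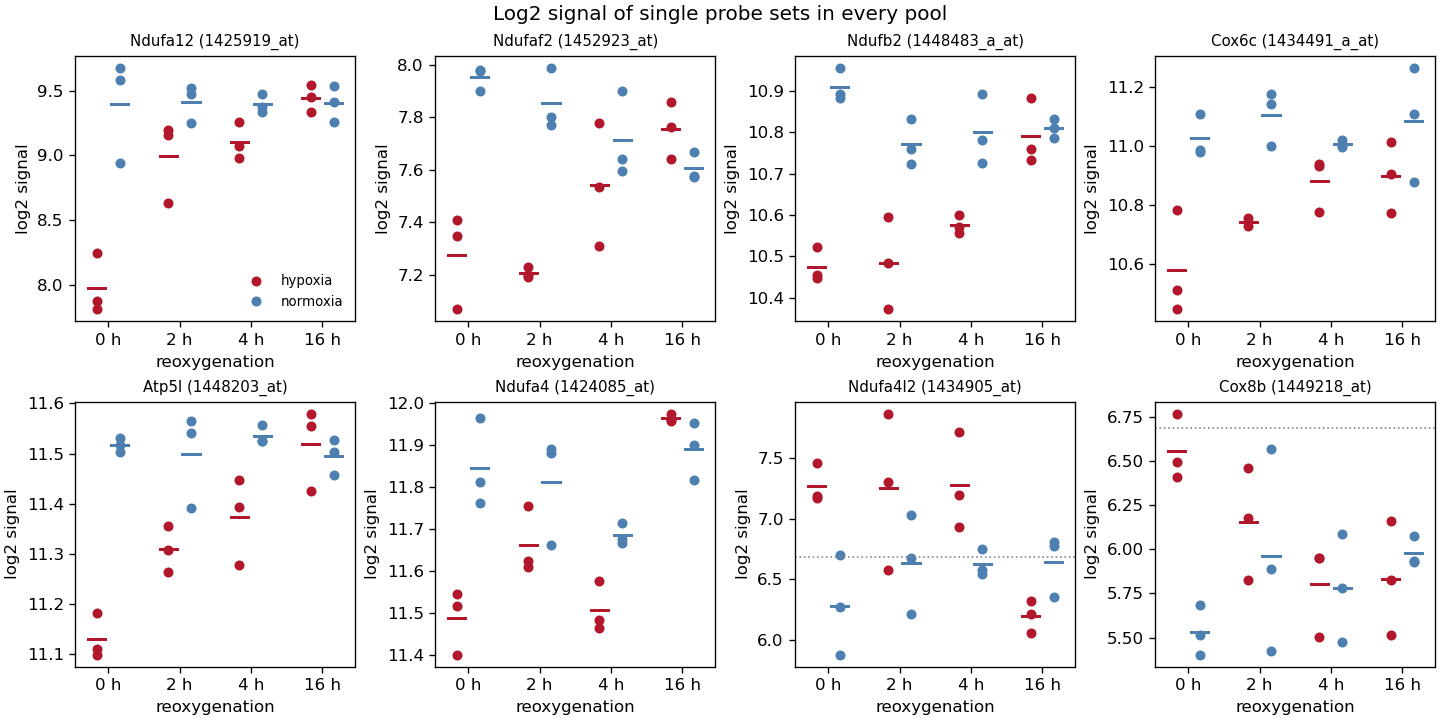
Log2 signal (vertical axis) of 8 probe sets in every pool at 0, 2, 4 and 16 h of reoxygenation (horizontal axis), with hypoxic pools in red on the left, normoxic pools in blue on the right, bars for group means and a dotted line at the signal threshold of 6.69 where it falls in the panel. The hypoxic pools of Ndufa12, Ndufaf2, Ndufb2, Cox6c, Atp5l and Ndufa4 lie below the normoxic pools at 0 h, while those of Ndufa4l2 and Cox8b lie above them.

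Other large falls in complex I were at the dimmer tested probe set of Ndufs4 (-0.42), an accessory subunit added late in assembly, at Ndufs8 (-0.39 at the probe set that fell most), a core subunit that carries iron-sulphur clusters, and at the accessory subunits Ndufa3 (-0.39) and Ndufc1 (-0.37). For Ndufs8, 5 of 6 tested probe sets fell and the sixth was at -0.22. For Ndufs4 the brighter probe set was at -0.09 and was not called. Over all members, 41 genes had several tested probe sets. Of these genes, 7 fell at all of them, 11 at some and 23 at none, with no calls in opposite directions.

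The core and accessory subunits of complex I were compared after the values were seen and without a test. Core subunits bind the flavin and the iron-sulphur clusters and are shared with bacteria, whereas accessory subunits surround them. Among accessory genes, 11 of 27 fell, with a median of -0.15. Among core genes encoded in the nucleus and tested, 1 of 6 fell, which was Ndufs8, with a median of 0.04. Of all 10178 genes tested, 18.7% were lower, so 1 of 6 is near the share of all genes. By probe sets, 5 of 16 core sets fell, all of Ndufs8, with a median of -0.05, and 25 of 51 accessory sets fell, with a median of -0.20. Ndufs3, a core subunit, was at 11.39, 11.48 and 11.55 in hypoxic pools and 11.36, 11.32 and 11.23 in normoxic pools. Its hypoxic pools lay above all normoxic pools, but the change of 0.17 was not called (adjusted p = 0.0869). Ndufv1, which carries the flavin, was at -0.05, and Ndufv2 at 0.09.

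The Uqcr genes of complex III were split in the same way, again after the values were seen and without a test. The core proteins Uqcrc1 and Uqcrc2 and the Rieske protein Uqcrfs1 were at -0.07, -0.06 and 0.01 and were not called. Of the 5 other genes, Uqcr11, Uqcrq and Uqcrh fell at their brightest probe sets. Uqcrb, a small subunit, fell by 0.33 at its dimmer probe set (adjusted p = 0.0108) and was at -0.12 and not called at the brighter. Uqcr11, a small subunit, was at 9.97, 10.06 and 9.98 in hypoxic pools and 10.38, 10.30 and 10.27 in normoxic pools, with no overlap (log2 change -0.32, SE 0.07, adjusted p = 0.00113). Uqcrq fell by 0.28. The brightest Uqcrh probe set fell by 0.22, and it was not called without hypoxic pool 1 or 2 or normoxic pool 1 or 2 (adjusted p up to 0.118).

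Complex II, which also works in the citric acid cycle, had no call among its 4 genes. Sdha, the subunit that binds the flavin, was at 11.54, 11.55 and 11.54 in hypoxic pools and 11.76, 11.69 and 11.65 in normoxic pools. The groups did not overlap, yet the change of -0.15 was not called (adjusted p = 0.0984). Sdhb, the iron-sulphur subunit, was at 0.09, and the membrane anchors Sdhc and Sdhd were at -0.12 and 0.09.

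In complex IV, the genes that fell were Cox6c, Ndufa4, Cox6b1 and Cox7a2, all nuclear-encoded subunits around the catalytic core. The dimmer probe set of Cox6c was at 10.45, 10.78 and 10.51 in hypoxic pools and 10.99, 10.98 and 11.11 in normoxic pools. No pool overlapped (log2 change -0.44, SE 0.10, adjusted p = 0.00149), and the brighter Cox6c probe set fell by 0.25. Cox6b1 fell by 0.25, where its testis isoform Cox6b2 was at 0.06 and not called. Cox6b1 was not called without hypoxic pool 1 or normoxic pool 1 (adjusted p up to 0.0652). Cox7a2 fell by 0.24, and its paralog Cox7a2l was at -0.05. Cox4i1, Cox5a, Cox5b, Cox6a1 and Cox8a were not called, with changes between -0.18 and 0.04 at their brightest probe sets.

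Of the isoforms linked to hypoxia, Ndufa4l2 rose and Cox4i2 stayed under the signal threshold. Ndufa4l2, known as a HIF-1 target that lowers complex I activity in cultured cells, was at 7.18, 7.46 and 7.16 in hypoxic pools and 6.70, 5.88 and 6.27 in normoxic pools. The normoxic pools varied widely around the signal threshold, and all lay below the hypoxic pools. Only the hypoxic mean (7.27) passed the threshold and the normoxic mean (6.28) did not, so the probe set was tested through the group where it is high and the size of the rise is uncertain. The log2 change was 0.98 (SE 0.26, adjusted p = 0.00544 by limma), with an adjusted p of 0.0776 by the methods' t-test, 0.00275 to 0.0383 under the other alternatives, and no test under the filter raised by 1. Its paralog Ndufa4, once placed in complex I and now in complex IV, was at 11.40, 11.55 and 11.52 in hypoxic pools and 11.81, 11.96 and 11.76 in normoxic pools. It moved the other way, with a log2 change of -0.36 (SE 0.08, adjusted p = 0.00134). The difference between Ndufa4l2 and Ndufa4 was higher in all hypoxic pools than in any normoxic pool.

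Cox4i2, the lung isoform that HIF-1 exchanges for Cox4i1 in cultured human cells, stayed below the signal threshold in all groups. It was at 6.00, 5.94 and 6.08 in hypoxic pools and 6.07, 5.76 and 5.78 in normoxic pools, and the groups overlapped. Cox4i1 was at 12.56, 12.64 and 12.63 in hypoxic pools and 12.75, 12.75 and 12.63 in normoxic pools. Its change of -0.10 was not called (adjusted p = 0.28). A probe set that the annotation used here gives to Emc8, the gene beside Cox4i1, was singled out after its values were seen. The gene lists of the study describe the same probe set as Cox4i1, and which gene it measures was not tested here. It was counted as no member. It was at 9.92, 10.05 and 10.14 in hypoxic pools and 9.07, 9.12 and 8.99 in normoxic pools (log2 change 0.97, adjusted p = 1.46e-08). Under the study's description, Cox4i1 would have this dimmer probe set called higher beside its brighter one that was not called.

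The isoforms of heart and skeletal muscle had low signals. Cox8b was at 6.50, 6.77 and 6.41 in hypoxic pools and 5.40, 5.68 and 5.52 in normoxic pools. The groups did not overlap, but both means were below the threshold, so the probe set was not tested in the main comparison and no size is given. Cox7a1 and Cox6a2 were also below the threshold at 0 h. Of 9 skeletal muscle markers 8 were below the threshold, and Acta1 rose by 0.44. Of 5 tested markers of pericytes and smooth muscle, 1 was called higher and 0 lower at 0 h, with a median of -0.10. Of all probe sets, 15.1% were called higher. The mean signal of 7 such markers was 7.30 to 7.51 in hypoxic pools and 7.03 to 7.27 in normoxic pools. The part of these cells in the isoform signals was not tested. At 0 h, the difference between isoform and partner was higher in all hypoxic than in all normoxic pools for Ndufa4l2, Cox6a2, Cox7a1 and Cox8b, and overlapped for Cox4i2. These differences also hold the changes of the partners Ndufa4 (-0.36), Cox7a2 (-0.24), Cox8a (-0.18) and Cox6a1 (-0.09). Among all single probe sets tested, 21.5% had hypoxic pools wholly above, and other pairs of probe sets were not counted. Over 5 pairs and 4 time points, 20 exact two-sided permutation tests of 3 against 3 pools could not go below p = 0.1. After adjustment no p was under 0.25.

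In the ATP synthase, 7 of 17 genes fell, where 18.7% of all genes were lower. Atp5e, the epsilon subunit of the central stalk, was at 10.44, 10.30 and 10.27 in hypoxic pools and 10.84, 10.76 and 10.62 in normoxic pools. Atp5l, subunit g of the membrane part, was at 11.18, 11.11 and 11.10 in hypoxic pools and 11.52, 11.53 and 11.50 in normoxic pools. Neither gene overlapped between the groups, and the changes were -0.40 (SE 0.09, adjusted p = 0.000952) and -0.39 (SE 0.07, adjusted p = 0.000243). The catalytic head is built of alpha and beta subunits. Atp5b, the beta subunit, was at 13.11, 13.10 and 13.06 in hypoxic pools and 13.25, 13.30 and 13.26 in normoxic pools. This small fall of 0.18 passed the test (adjusted p = 0.0374), although not without any single pool of 0 h (adjusted p = 0.0606 to 0.108). Atp5a1, the alpha subunit, was at 12.83, 12.81 and 12.88 in hypoxic pools and 12.75, 12.80 and 12.75 in normoxic pools, and its change of 0.07 was not called.

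The proton-conducting ring is made of subunit c, which 3 genes encode as the same mature protein. Of these, Atp5g1 fell by 0.29 (adjusted p = 0.00682), with no overlap between the groups. Atp5g3 fell by 0.17, and its call was lost without any single pool of 0 h other than hypoxic pool 2 (adjusted p up to 0.174). Atp5g2 was at -0.11 and was not called. Atpif1, the inhibitor that blocks ATP breakdown by the synthase and is no member, fell by 0.31 (adjusted p = 0.00522).

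After 2 h of reoxygenation, the falls were fewer. Of 145 tested members, 17 fell (11.7%) and 0 rose, where 7.37% of all probe sets were called lower and 9.19% higher. At an unadjusted p under 0.05, 37 members passed and 32 of them were lower. The median change was -0.06, against 0.01 over all probe sets. Hypoxic pools lay wholly below normoxic pools in 39 members (14.9% of all probe sets) and wholly above in 12 (19.8%). Of the 17 probe sets, 15 had also fallen at 0 h, which is 28.8% of the 0 h list and 88.2% of the 2 h list. The count fell to 7 without hypoxic pool 1, 6 without hypoxic pool 3, 8 without normoxic pool 1 and 9 without normoxic pool 3 of 2 h. With the 6 arrays of 2 h alone, 2 members (1.38%) and 3.38% of all probe sets were lower, so the members' share was then below that of all probe sets.

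The fall of Ndufaf2 was as large at 2 h as before. It was at 7.19, 7.20 and 7.23 in hypoxic pools and 7.77, 7.80 and 7.99 in normoxic pools at 2 h, well apart (log2 change -0.65, SE 0.11, adjusted p = 0.000571). Ndufa1, an accessory subunit needed for complex I assembly, was at 11.88, 12.09 and 12.03 in hypoxic pools and 12.36, 12.25 and 12.43 in normoxic pools, with no overlap (log2 change -0.35). Cox6c (-0.36), Ndufb2 (-0.34 and -0.29), Ndufc1 (-0.32 and -0.31), Ndufs8 and Atp5e were also still lower. Called at 2 h and not at 0 h were Ndufa13 (-0.28), an accessory subunit first described as a cell death gene, and a probe set of Ndufc2 (-0.23). Both were singled out after their values were seen. The 2 h comparison was repeated without each pool of 2 h in turn for 1 probe set each of Ndufaf2, Ndufa1, Cox6c, Ndufb2, Ndufc1, Ndufs8, Atp5e and Cox6b1, and of these only Ndufaf2 was called every time.

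**Figure D3:**
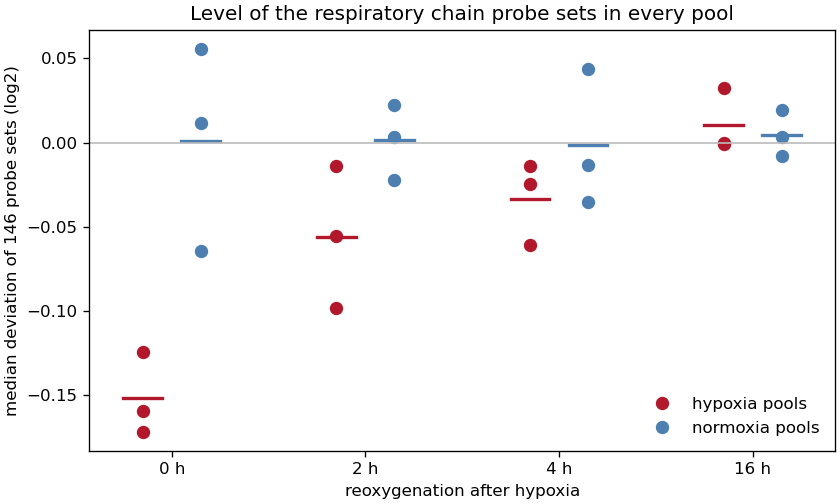
Median deviation (log2, vertical axis) of 146 member probe sets in every pool from their mean in the normoxic pools of the same time point. Pools are shown by reoxygenation time, with hypoxic pools in red on the left, normoxic pools in blue on the right and bars for group means. Levels cannot be compared between time points, since each has its own reference. At 0 h the hypoxic pools lie at -0.17, -0.16 and -0.12, below the normoxic pools at 0.06, 0.01 and -0.06, and the groups overlap at 2, 4 and 16 h.

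At 4 h and 16 h, 0 members were called by limma. At 4 h, 0.545% of all probe sets were called lower and 0.874% higher, and 20 of 147 members had an unadjusted p under 0.05. At 16 h the limma calls were 0 over all probe sets, and 3 of 145 members had an unadjusted p under 0.05. The methods' t-test also called 0 members at both times after adjustment, with 35 and 9 at an unadjusted p under 0.05. The median change was -0.03 at 4 h and 0.01 at 16 h, against 0.02 over all probe sets at each time. Hypoxic pools lay wholly below normoxic pools in 35 members at 4 h (10.2% of all probe sets) and 8 at 16 h (4.18%), and wholly above in 17 at 4 h (17.1%) and 10 at 16 h (6.87%). Ndufa4l2 was at 7.19, 7.71 and 6.93 in hypoxic pools and 6.75, 6.57 and 6.55 in normoxic pools at 4 h. These groups still did not overlap, but the difference of 0.65 was not called (adjusted p = 0.214). At 16 h it was at 6.33, 6.22 and 6.06 in hypoxic pools and 6.81, 6.78 and 6.36 in normoxic pools, so hypoxic pools were then the lower ones (-0.45), with both means below the threshold and no test.

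**Figure D4:**
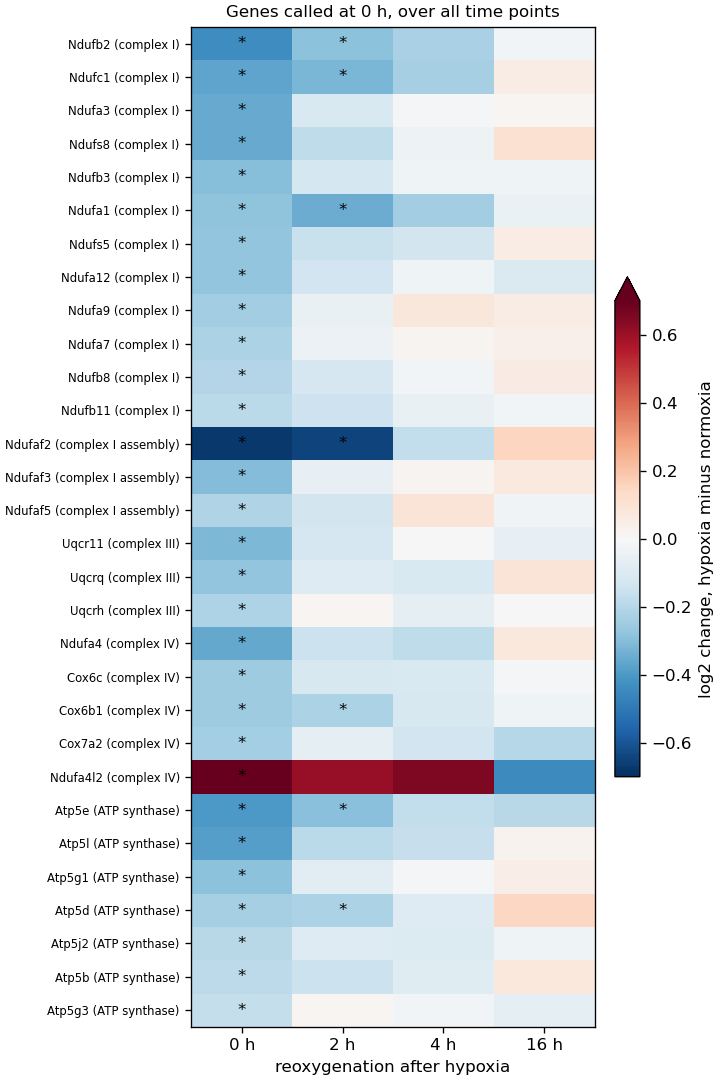
Log2 change (hypoxia minus normoxia, colour) of the 30 genes called at 0 h, each by its probe set of highest mean signal, at 0, 2, 4 and 16 h, with stars for adjusted p under 0.05. Blue rows fade over time, with 7 stars at 2 h and none later, and the red row is Ndufa4l2.

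Whether the effect of hypoxia changed over time was tested as a difference of effects. Against 2 h, the effect at 0 h differed for 1 of 146 members, the dimmest Ndufa12 probe set. Of all probe sets, 8.22% differed and 5.42% had the lower effect at 0 h. Against 4 h it differed for 12 of 147 members, all with the lower effect at 0 h. Of all probe sets, 10.6% had the lower effect at 0 h and 16.9% differed in either direction. Against both 2 h and 4 h, members thus differed less often than all probe sets. The 12 were probe sets of Ndufa12, Ndufa3, Ndufa5, Ndufa9, Ndufs8, Ndufaf2, Ndufaf7, Sdha and Uqcr11. This count fell to 3 to 7 without hypoxic pool 1 or 3 or normoxic pool 1 or 2 of 0 h, or without hypoxic or normoxic pool 1 or 2 of 4 h. Against 16 h the effect was lower at 0 h for 24 of 147 members, against 11.8% of all probe sets, and 16 of the 24 were of complex I. It was higher at 0 h for Ndufa4l2, and 20.5% of all probe sets differed in either direction. Against 16 h too, members thus differed less often than all probe sets in either direction. Only the lower effect at 0 h was more frequent among members.

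Sdha was not called at any time, yet its effect changed. At 4 h it was at 11.71, 11.79 and 11.74 in hypoxic pools and 11.57, 11.56 and 11.66 in normoxic pools. The hypoxic pools then lay above the normoxic pools, opposite to 0 h, and the effects differed by -0.30 (adjusted p = 0.0363). Ndufa5, an accessory subunit of complex I, likewise was at -0.18 at 0 h and 0.16 at 4 h, a difference of -0.34 (adjusted p = 0.0224). In normoxic retinas the level of the members did not pass a test over time. By the limma F test over the 4 normoxic groups, 0 of 146 members were called (background 3.54%), the smallest adjusted p was 0.141, and 8 had an unadjusted p under 0.05.

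Genes outside the naming rule that are part of the chain, build it or serve it were called in both directions at 0 h. Of all probe sets, 17.2% were lower and 15.1% higher. The lists are small, and their counts are a description. Cytochrome c (Cycs) fell by 0.46 (adjusted p = 0.00212), while cytochrome c1 (Cyc1) was at -0.06 and was not called. Neither symbol matches the rule, so neither gene is in the counts by complex. Of 17 tested assembly factors of complex IV, 6 fell and 2 rose, with a median of -0.05. Coa6, which helps to load copper, was lowest with a change of -1.04 (adjusted p = 8.38e-08), followed by Coa3 (-0.54) and Cox19 (-0.45), and Sco1 and Cox20 rose by 0.35 and 0.32. Of the 3 assembly factors of the ATP synthase, Tmem70 (-0.47) and Atpaf1 (-0.43) fell and Atpaf2 rose by 0.55. Of 6 other assembly factors of complex I, Nubpl (-0.45) and Timmdc1 (-0.42) fell and Foxred1 rose by 0.58. Timmdc1 was tested only through its normoxic mean of 6.69, just at the threshold, since its hypoxic mean of 6.27 was below it. Bcs1l (-0.68) and Uqcc3 (-0.51), which act on complex III, and Sdhaf3 (-0.63) and Sdhaf4 (-0.26), which act on complex II, also fell, and Uqcc1 rose by 0.26.

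A list of genes linked to HIF-1 control of respiration was chosen with earlier results of these data known. Of its 6 tested genes, 5 rose, with a median of 0.65, where 15.1% of all probe sets were higher. They were Bnip3 (1.20), which removes mitochondria, Higd1a (1.16), which binds complex IV, Mxi1 (0.68), an antagonist of Myc, Pdk1 (0.61), which blocks the entry of pyruvate, and Lonp1 (0.48), a mitochondrial protease. Higd2a fell by 0.42. At 2 h, 4 of the 6 were called higher, against 9.19% of all probe sets. Of 12 genes of mitochondrial biogenesis, 2 fell and 1 rose, shares no higher than those of all probe sets. Pprc1 (-1.07), a coactivator, and Tfb1m (-0.73), which methylates mitochondrial ribosomal RNA, fell and Nrf1 (0.47) rose, whereas Ppargc1a, Tfam and Gabpa were at 0.08, -0.05 and -0.23 and were not called.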

How the data were processed

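Retinal RNA was measured on 24 Affymetrix arrays, 3 pools for each of 8 groups. Per the labels, the authors made the deposited log2 values with RMA, which corrects background, normalizes between arrays and summarises each probe set. Its version is not given in the sources used here. The study made its own gene lists from GCRMA values, which were not used here. On arrays, signal over background and the number of arrays limit precision.

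Control probe sets (64) were left out. One model with a mean per group was fitted to all arrays with limma 3.58.1 in R 4.3.3, with moderated variance and Benjamini-Hochberg adjustment over all probe sets tested, after the study's signal filter. The script was tested on simulated data. Symbols came from the platform annotation, and 10 probe sets with several symbols, of which 1 or more matched, were counted apart. Named genes were isoform pairs, complex II subunits, the largest changes at 0 h and 2 h without overlap, the smallest p for a changed effect and catalytic subunits. The members and lists were chosen with earlier results of these data known. Alternatives were other filters, scalings, fits, thresholds and left-out arrays. Promoters were from RefSeq.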

Additional observations from a re-analysis of the deposited data

Results flagged for a closer look

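For a set of the named probe sets, the effect of hypoxia at 0 h differed from that at a later time by the test of the difference itself (limma, adjusted over all probe sets). Of all probe sets, 8.22% differed against 2 h, 16.9% against 4 h and 20.5% against 16 h. Each value is the log2 effect at 0 h minus the later log2 effect. Against 16 h, the complex I probe sets were at -1.46 (the dimmest Ndufa12 probe set), -0.52 (Ndufs8), -0.48 (Ndufb2), -0.47 (Ndufa3) and -0.42 (Ndufc1), and the assembly factors Ndufaf2 and Ndufaf3 at -0.83 and -0.37. Against 16 h, Ndufa4 was at -0.43, Atp5l at -0.41 and Atp5g1 at -0.34, while Ndufa4l2 was at 1.43 (adjusted p = 0.00794). This last value joins an effect of 0.98 at 0 h with one of -0.45 at 16 h, where the probe set was below the threshold in both groups and was not tested.

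Against 4 h, the differences were -1.13 and -0.32 for probe sets of Ndufa12, -0.51 for Ndufaf2, -0.41 for Ndufa3, -0.35 for Ndufs8, -0.34 for Ndufa5, -0.32 for Uqcr11 and -0.30 for Sdha. Against 2 h, the dimmest Ndufa12 probe set was at -1.0 (adjusted p = 0.0094). Groups of 3 pools were too small for a test of single outlying pools.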

How the results depend on the processing

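At 0 h, 52 members were lower, 39 to 48 without any single pool, and 46 to 66 under other filters, scalings, weights, a trended spread or an adjusted p under 0.1, except for 36 without probe sets ending in _x_at or _s_at. With the 6 arrays of 0 h alone the count was 27 (11 genes, against 29), where 12.6% of all probe sets were lower, and with the methods' t-test 32 (17 genes), where 7.79% were. The cause of these lower counts was not tested. Added after seeing the data, the fit without normoxic pool 2 of 0 h and pool 3 of 16 h gave 42. With probe sets averaged within genes, 34 of 81 genes were lower at 0 h, where 18.8% of all genes were. The median at 0 h was -0.18 to -0.12 without any single pool, -0.12 for complex II under median centring and -0.15 for assembly factors under quantile scaling. Members higher at 0 h were 3 with no filter (Ndufa4l2, Cox8b and an Ndufa3 probe set of low signal), 0 with the filter raised by 1, 3 with the trended spread, 2 with array weights, 0 with the t-test and 2 at an adjusted p under 0.1.

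At 2 h, 17 members were lower, and 9 of 84 genes by their brightest probe set, where 8.24% of all genes were. Lower members were 11 with no filter, 27 with the trended spread (16 genes), 2 with the arrays of 2 h alone (1 gene, and 1.38% of members against 3.38% of all probe sets), 1 with the t-test (1 gene, and 0.69% against 0.253%), 11 without _x_at or _s_at sets (5 genes), and 6 to 13 without any single pool (3 to 7 genes). Higher members at 2 h were 1 with no filter, quantile scaling, median centring or array weights, 2 with the trended spread, 2 at an adjusted p under 0.1 and 0 to 1 without any single pool. At 4 h, 3 were lower with the trended spread, 2 lower and 1 higher with array weights, and 2 lower and 1 higher at an adjusted p under 0.1.

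Members whose effect differed between 0 h and 2 h were 2 with the raised filter, 4 with the trended spread, 3 at an adjusted p under 0.1 and 1 to 2 without any single pool. Against 4 h they were 5 with no filter, 23 with the trended spread, 21 at an adjusted p under 0.1 and 3 to 14 without any single pool. Against 16 h they were 40 with the trended spread and 40 at an adjusted p under 0.1.

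The replicate numbers were not used as pairs in the main fit. After the mean of each group was subtracted, same-numbered hypoxic and normoxic pools correlated between -0.227 and 0.237, and 2 of 12 exceeded 0.1. With 3 pools per group, these values cannot show whether the pools were paired. With the replicate block, 40 members were lower at 0 h, 10 (5 genes) at 2 h, and 2 and 15 differed between 0 h and 4 h or 16 h. For 31 calls of single probe sets, 452 of 552 alternatives kept the call, 100 kept only the direction and 0 reversed. Changes of filter, spread, block, test or threshold leave the log2 change itself as it is. Leaving out a pool cannot reverse it where the groups do not overlap. The absence of reversals was thus largely fixed in advance, and the looser adjusted p under 0.1 could lose no call. No other probe set pair existed for the 2 hypoxia isoforms. Without any single pool of 0 h, the difference Cox4i2 minus Cox4i1 stayed between 0.17 and 0.32. The difference Ndufa4l2 minus Ndufa4 could not change its direction in this way, since its hypoxic and normoxic pools did not overlap. Limits: pools of 3, small changes, and signals near the threshold for Ndufa4l2.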

Other observations

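Of 11 tested genes of the citric acid cycle, which feeds complexes I and II, 5 fell and 0 rose at 0 h, with a median log2 change of -0.19, where 17.2% of all probe sets were lower and 15.1% higher. The largest fall was at fumarase (Fh1, -0.38, adjusted p = 0.000357), followed by Suclg1 (-0.28), Mdh2 (-0.21), Ogdh (-0.21) and Sucla2 (-0.19). Cs, the citrate synthase gene, was at -0.10 and was not called. At 2 h 1 of the 11 was called lower (7.37% of all probe sets), and later 0.

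Some member probe sets of low signal moved against the rest. Without the signal filter, another Ndufa3 probe set was higher in hypoxic pools at 0 h by 0.87 (adjusted p = 0.000116), while both tested Ndufa3 probe sets fell. Without the filter, a Cox5b probe set of low signal was higher at 2 h by 0.48 (adjusted p = 0.0226). Of the 10 probe sets that the annotation gives to several genes, 6 were tested at 0 h and 2 were lower.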
